A study of Mus musculus with 9 samples.

Results

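The 9 genes described here are markers of B cells and plasma cells: Cd79a, Cd79b, Ms4a1, Pax5, Cd22, Cd37, Tnfrsf13c, Jchain and Mzb1. They were taken by symbol from a table of 54532 gene IDs, of which 26478 had at least 1 count, and all 9 were found once. Per the labels, RNA was measured in the livers of 9 ApoE-/- mice on the C57BL/6 background, with 3 libraries in each of 3 groups. By the stated design, the HFD + IgG1 and HFD + PBS mice were males kept from 4 weeks of age for 20 weeks on a diet whose fat gave 41% of its calories, and then on chow for 1 week. HFD + IgG1 mice were injected into the peritoneum with 3 mg of recombinant human IgG1, at 25, 26 and 27 weeks of age. No target of that antibody is named. HFD + PBS mice received PBS on the same schedule, and both groups were killed at 29 weeks. The normal diet group was also male and ApoE-/- per the study's design; its age at death and injections are not stated, so in comparisons with it diet cannot be told apart from age or injection. Livers were picked for sequencing by their fat staining and triglyceride values. The treatment label of HFD + IgG1 replicates 6 and 7 reads IgG2 and IgG3 instead of IgG1, although their titles and the design place them in the same group as replicate 5.

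B cells recognise antigen with a membrane immunoglobulin that signals through the Cd79a and Cd79b chains, and the transcription factor Pax5 keeps the lineage's identity until a cell becomes a plasma cell. Plasma cells lose Pax5 and most B cell surface proteins and secrete antibody, with the joining chain made by Jchain linking IgA and IgM into polymers. The liver holds circulating and resident B cells and a small number of plasma cells among a large excess of hepatocytes. In such bulk RNA, fewer cells of a type and less RNA per cell cannot be told apart.

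Libraries held 16215194 to 18538463 counts. The 9 genes took 2 to 1571 counts each per library, and no gene other than Jchain had more than 533. By their Apoe and sex-linked counts, 3 of the 9 libraries did not match their labels, and the other 6 are called the concordant libraries. These are HFD + IgG1 replicates 6 and 7, HFD + PBS replicates 3 and 4 and normal diet replicates 4 and 6. The word does not cover the treatment label, as HFD + IgG1 replicates 6 and 7 are the libraries labelled IgG2 and IgG3. HFD + IgG1 replicate 5 had 235888 counts of Apoe, the gene targeted in this strain, against 225 to 1655 in each of the other 8 libraries. HFD + PBS replicate 6 and normal diet replicate 5 had 0 counts over 4 Y-linked genes, with 10970 and 17065 counts of Xist, while the other 7 had 2837 to 3385 Y-linked counts and at most 4 of Xist. All 9 are used in the comparisons, and log2 fold changes in the 6 concordant libraries are given for the tested markers, and for other genes and lists where they turned sign or moved by over 1.5 times. Hepatocyte markers summed to 84784 to 166860 CPM (counts scaled to the library's normalised total) in HFD + IgG1, 50201 to 94148 in HFD + PBS and 74536 to 91549 in normal diet libraries. The skeletal muscle genes Ckm and Myh4 and the pancreatic genes Cpa1 and Pnlip had 0 counts in every library, and 2 marker lists, of skeletal muscle and of lymph node or spleen stroma, had no gene abundant enough to be tested.

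Promoter windows of RefSeq (GRCm38.p6) were available for 6 of the 9 genes. In the 250 bases before the RefSeq start, 3 motifs of B cell regulators were searched on both strands. The EBF1 motif, TCCC and GGGA set apart by any pair of bases and bound by a factor that specifies the B lineage, was in 1 of the 6 windows and in 0.779% of all 32851 windows. The PU.1 box GAGGAA, bound by a myeloid and B cell factor, was in 2 of the 6 (Cd79a and Cd37) and in 23.3% of all windows, and the octamer ATGCAAAT was in 0 of the 6 and in 1.6% of all. A match is a description of the letters and says nothing of binding. Cd79a and Cd22 are shown as genes of receptor signalling that hold a match, and Pax5 and Jchain as the B cell regulator and the plasma cell gene among the markers. By GENCODE coordinates the windows of Cd22 and Cd37 lie inside the genes, and that of Cd79a runs past the start of the gene. Each sequence is the longest stretch of its window outside GENCODE exons, which is 134 bases for Cd79a and 148 for Cd22, and that of Cd37 holds no match. They lie at chr7:24897247-24897380 on the plus strand (Cd79a, PU.1 box in capitals on the reverse complement), chr7:30879029-30879176 on the minus strand (Cd22, EBF1 motif in capitals), chr4:44710695-44710944 on the minus strand (Pax5, no match) and chr5:88527898-88528147 on the minus strand (Jchain, no match).
Cd79a: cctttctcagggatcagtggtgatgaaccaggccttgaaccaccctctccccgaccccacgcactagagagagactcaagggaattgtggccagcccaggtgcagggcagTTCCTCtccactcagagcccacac
Cd22: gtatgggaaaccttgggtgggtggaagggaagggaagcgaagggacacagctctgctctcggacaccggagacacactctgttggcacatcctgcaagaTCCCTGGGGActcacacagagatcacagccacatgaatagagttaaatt
Pax5: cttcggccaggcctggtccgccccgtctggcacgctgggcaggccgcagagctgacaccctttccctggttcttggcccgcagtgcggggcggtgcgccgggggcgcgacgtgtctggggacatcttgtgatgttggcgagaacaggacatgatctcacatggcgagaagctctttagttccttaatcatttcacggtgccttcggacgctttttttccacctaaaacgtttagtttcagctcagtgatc
Jchain: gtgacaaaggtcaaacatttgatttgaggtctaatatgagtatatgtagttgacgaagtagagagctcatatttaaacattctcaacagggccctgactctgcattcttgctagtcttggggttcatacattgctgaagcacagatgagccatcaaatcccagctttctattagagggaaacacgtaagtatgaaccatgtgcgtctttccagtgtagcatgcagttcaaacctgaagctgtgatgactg

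Per base of exon, Jchain was the most abundant of the 9 genes. In RPKM, which is CPM per kilobase of GENCODE M21 exon, Jchain averaged 12.7 ± 4.94 in HFD + IgG1, 22.1 ± 8.56 in HFD + PBS and 20.1 ± 4.68 in normal diet livers (SD, n = 3 each). In normal diet livers it was followed by Mzb1 at 2.26 ± 0.844, Cd37 at 2.07 ± 0.356, Cd79b at 1.89 ± 0.294, Cd79a at 1.35 ± 0.333 and Cd22 at 1.19 ± 0.287 RPKM. The lowest were Ms4a1 at 0.363 ± 0.0519, Tnfrsf13c at 0.313 ± 0.299 and Pax5 at 0.196 ± 0.0451 RPKM. Between neighbours in this order, only Jchain and Mzb1, and Cd22 and Ms4a1, were further apart than the sum of their SDs. The share of Jchain in the summed CPM of the 9 genes ran from 44.8% to 74.6% over the libraries.

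No gene of the 14763 tested passed edgeR's quasi-likelihood test at an adjusted p of 0.05 in any of the 3 comparisons, so the percentage called is 0 throughout. Unadjusted p-values under 0.05 numbered 3569 for HFD + IgG1 against HFD + PBS, 1040 for HFD + IgG1 against normal diet and 3076 for HFD + PBS against normal diet. DESeq2 called 1270 genes (8.67% of those it tested), 101 genes (0.715%) and 1138 genes (7.26%) in the same order. Of the 9 markers, 8 passed the filter on low counts and were tested. The 3 comparisons share libraries, so their values for a gene are not independent. The design counts 9 mice in 3 groups. A p-value here sets a difference between groups against the spread between these libraries. As the livers were picked by fat staining and triglyceride values, that spread need not be that of mice at large.

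Cd79a (ENSMUSG00000003379, chromosome 7, 24897381 to 24902197, mm10) and Cd79b (ENSMUSG00000040592, chromosome 11, 106311341 to 106314762) encode the signalling pair of the B cell receptor. Cd79a had 2.50, 0.748 and 0.785 CPM in HFD + IgG1 replicates 5, 6 and 7, against 1.77, 2.40 and 3.61 in HFD + PBS replicates 3, 4 and 6 and 2.50, 1.84 and 1.56 in normal diet replicates 4, 5 and 6. HFD + IgG1 replicates 6 and 7 were the lowest of all 9 libraries, while replicate 5 lay inside the range of both other groups. The log2 fold change was -0.96 (SE 0.52, edgeR adjusted p = 0.278) for HFD + IgG1 against HFD + PBS, and -1.47 in the concordant libraries. The value was -0.57 (SE 0.53) for HFD + IgG1 against normal diet and 0.40 (SE 0.51) for HFD + PBS against normal diet, and in the concordant libraries -1.41 and 0.06.

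Cd79b had 2.35, 1.28 and 1.09 CPM in HFD + IgG1, 1.85, 1.37 and 3.87 in HFD + PBS and 2.87, 3.01 and 2.22 in normal diet livers, with replicates in the order used for Cd79a. Again HFD + IgG1 replicates 6 and 7 were the lowest, and HFD + PBS replicate 6 was the highest, with all groups overlapping. Fitted log2 fold changes were -0.59 (SE 0.46, edgeR adjusted p = 0.440) against HFD + PBS and -0.78 (SE 0.46, edgeR adjusted p = 0.748) against normal diet for HFD + IgG1, or -0.49 and -1.11 in the concordant libraries. The value against HFD + PBS was -0.045 without HFD + PBS replicate 6 and -1.02 without HFD + IgG1 replicate 5. HFD + PBS had -0.19 (SE 0.45) against normal diet, or 0.10 without HFD + PBS replicate 4 and -0.62 in the concordant libraries.

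Ms4a1 (ENSMUSG00000024673, chromosome 19, 11249675 to 11266241) encodes CD20, a membrane protein of B cells that plasma cells lack. It had 3.14, 0.641 and 0.664 CPM in HFD + IgG1, 1.06, 0.915 and 2.27 in HFD + PBS and 2.26, 2.56 and 1.92 in normal diet livers. HFD + IgG1 replicate 5 was the highest of the 9 libraries and replicates 6 and 7 the lowest, so the group spanned the whole range. The value for HFD + IgG1 was 0.05 on the log2 scale (SE 0.64, edgeR adjusted p = 0.971) against HFD + PBS. It was -1.14 without HFD + IgG1 replicate 5, 0.56 without HFD + PBS replicate 6 and -0.64 in the concordant libraries. Against normal diet, HFD + IgG1 had -0.62 (SE 0.64) and HFD + PBS had -0.66 (SE 0.63), and in the concordant libraries -1.68 and -1.05.

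Pax5 (ENSMUSG00000014030, chromosome 4, 44524757 to 44710487) had the widest differences of the 8 tested markers between both high-fat groups and normal diet. It had 1.14, 0.267 and 0.181 CPM in HFD + IgG1, 0.132, 0.114 and 1.19 in HFD + PBS and 1.77, 2.12 and 1.32 in normal diet livers. These are 16, 5 and 3 counts, 3, 2 and 23 counts, and 29, 38 and 22 counts. Every library of both high-fat groups lay below every normal diet library, and HFD + IgG1 replicate 5 and HFD + PBS replicate 6, neither of them concordant, were the nearest to it. Against normal diet, the log2 fold change was -1.74 (SE 0.91, edgeR adjusted p = 0.736) for HFD + IgG1 and -1.85 (SE 0.90, edgeR adjusted p = 0.268) for HFD + PBS. In the concordant libraries these were -2.75 and -3.54, with edgeR adjusted p-values of 1.00 and 0.168. Between HFD + IgG1 and HFD + PBS it was 0.11 (SE 0.96), and the sign depended on the libraries, with -1.09 without HFD + IgG1 replicate 5 2.0 without HFD + PBS replicate 6 and 0.79 in the concordant libraries. Its exons share 636 bases with 5730488B01Rik on the other strand, a gene with 3 counts in all.

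Cd22 (ENSMUSG00000030577, chromosome 7, 30865402 to 30880342), a lectin that dampens receptor signalling, had 3.50, 5.08 and 3.02 CPM in HFD + IgG1, 7.99, 4.63 and 6.14 in HFD + PBS and 5.25, 7.68 and 5.10 in normal diet livers. All HFD + IgG1 libraries lay below all normal diet libraries, by a small margin in replicate 6, and they overlapped HFD + PBS. HFD + IgG1 livers had log2 fold changes of -0.69 (SE 0.31, edgeR adjusted p = 0.202) against HFD + PBS and -0.63 (SE 0.31, edgeR adjusted p = 0.715) against normal diet. The value of HFD + PBS was 0.06 (SE 0.30) against normal diet, and without HFD + PBS replicate 3 it was -0.13. In the concordant libraries HFD + IgG1 had -0.68 against HFD + PBS and -0.36 against normal diet, and HFD + PBS had 0.32 against normal diet.

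Cd37 (ENSMUSG00000030798, chromosome 7, 45233632 to 45239115) encodes a tetraspanin of B cells that T cells and myeloid cells also carry. It had 3.92, 12.2 and 2.66 CPM in HFD + IgG1, 23.5, 9.55 and 17.8 in HFD + PBS and 7.57, 8.40 and 5.94 in normal diet livers. All HFD + PBS libraries lay above all normal diet libraries, and HFD + IgG1 replicates 5 and 7 lay below both other groups, while replicate 6 lay above normal diet. The log2 fold change was -1.43 (SE 0.54, edgeR adjusted p = 0.166) for HFD + IgG1 against HFD + PBS, or -1.18 in the concordant libraries. It passed the threshold in edgeR without HFD + IgG1 replicate 6, at -2.37 with an adjusted p of 0.0070 where 15.5% of all genes were called, and in DESeq2, at -1.46 with an adjusted p of 0.04997. It was 1.22 (SE 0.54, edgeR adjusted p = 0.238) for HFD + PBS against normal diet, or 1.32 in the concordant libraries, and for HFD + IgG1 against normal diet -0.21 (SE 0.54), or 0.14 in the concordant libraries. Its exons share 13 bases with Tead2 on the other strand. Values for markers of the other cells that carry Cd37 are given with the marker lists, and their part in it was not tested.

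Tnfrsf13c (ENSMUSG00000068105, chromosome 15, 82221743 to 82224369) encodes the receptor for BAFF, the survival factor of mature B cells. It had 6, 2 and 4 counts in HFD + IgG1, 4, 5 and 19 in HFD + PBS and 22, 4 and 6 in normal diet livers, too few to pass the filter. In CPM it averaged 0.259 ± 0.161, 0.481 ± 0.436 and 0.642 ± 0.611 in these groups (SD, n = 3 each), each mean resting mainly on 1 library in the HFD + PBS and normal diet groups. Fitted with no filter, it had log2 fold changes of -0.95 for HFD + IgG1 against HFD + PBS, -1.34 for HFD + IgG1 against normal diet and -0.40 for HFD + PBS against normal diet, with edgeR adjusted p-values of 0.657, 0.825 and 0.860.

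The plasma cell genes were Jchain (ENSMUSG00000067149, chromosome 5, 88519809 to 88527891) and Mzb1 (ENSMUSG00000024353, chromosome 18, 35647267 to 35649367), which encodes an endoplasmic reticulum protein that helps antibody secretion and is also made by marginal zone B cells and plasmacytoid dendritic cells. Jchain had 36.4, 41.6 and 17.9 CPM in HFD + IgG1, 69.4, 66.6 and 30.7 in HFD + PBS and 62.0, 51.0 and 38.4 in normal diet livers. HFD + IgG1 replicate 7 was the lowest library and HFD + PBS replicates 3 and 4 the highest, and HFD + PBS replicate 6 lay inside the HFD + IgG1 range. On the log2 scale HFD + IgG1 had -0.80 (SE 0.38, edgeR adjusted p = 0.231) against HFD + PBS, or -1.22 in the concordant libraries, and -0.66 (SE 0.38, edgeR adjusted p = 0.748) against normal diet, or -0.76 in the concordant libraries. HFD + PBS against normal diet gave 0.14 (SE 0.37), or 0.46 in the concordant libraries.

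Mzb1 had 1.50, 1.92 and 1.51 CPM in HFD + IgG1, 3.00, 3.43 and 2.01 in HFD + PBS and 3.91, 2.34 and 1.98 in normal diet livers. All HFD + IgG1 libraries lay below all libraries of both other groups, with the narrowest gaps to HFD + PBS replicate 6 and normal diet replicate 6. Mzb1 log2 fold changes of HFD + IgG1 were -0.77 (SE 0.37, edgeR adjusted p = 0.229) against HFD + PBS and -0.73 (SE 0.37, edgeR adjusted p = 0.720) against normal diet, or -0.94 and -0.79 in the concordant libraries. HFD + PBS against normal diet gave 0.04 (SE 0.36), or -0.15 without normal diet replicate 6 and 0.15 in the concordant libraries. Its exons share 695 bases with SPATA24 on the same strand, so an unknown part of its counts could come from that gene.

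**Figure D1:**
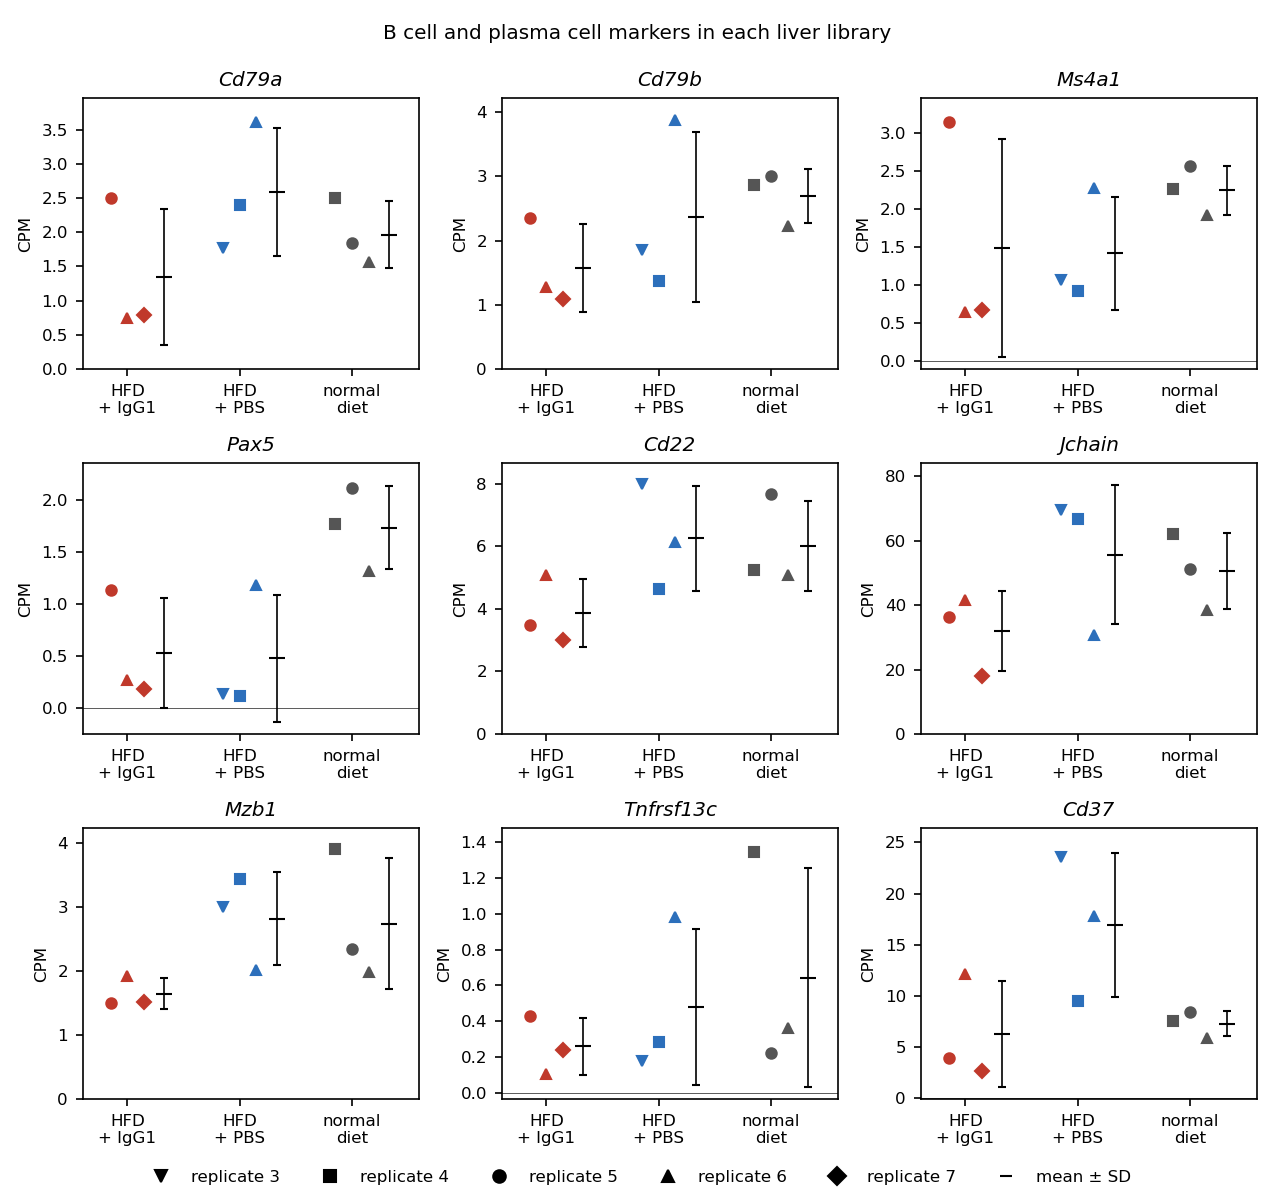
CPM of each of the 9 markers (vertical axis, linear) in the 3 libraries of each group, with the marker shape giving the replicate number and the bar the mean ± SD. Pax5 lies higher in all 3 normal diet libraries than in the other 6, Mzb1 lies lowest in the 3 HFD + IgG1 libraries, and Cd37 is highest in HFD + PBS replicate 3.

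The markers were then set against all genes. Between HFD + IgG1 and HFD + PBS, 6 of the 8 tested markers had a negative log2 fold change, where the share over all genes was 47.2%, and the median was -0.73 against 0.04 over all genes. An unadjusted p under 0.05 with lower values was found for 2 of the 8 (Cd22 and Cd37), against 11.6% of all genes, and 1 of the 8 (Mzb1) had groups that did not overlap, against 11.2% of all genes lower in that way. No marker was higher by either measure, against 12.6% and 15.3% of all genes. In the concordant libraries, 7 of the 8 were negative, 2 had an unadjusted p under 0.05 (Cd79a and Jchain, not the earlier pair), against 8.4% of all genes in either direction in that fit, and the median was -0.81.

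Against normal diet, all 8 tested markers had a negative log2 fold change in HFD + IgG1, against 49.6% of all genes, with a median of -0.65 against 0.0033 over all genes. None of the 8 had an unadjusted edgeR p under 0.05 (3.21% of all genes were lower and 3.83% higher at that level), and DESeq2 called none. Groups did not overlap for 3 of the 8 (Pax5, Cd22 and Mzb1), against 6.41% of all genes lower in that way, and for none on the higher side, against 5.54%. In the concordant libraries, 7 of the 8 were negative, 3 had an unadjusted p under 0.05 (Cd79a, Ms4a1 and Pax5), against 3.54% of all genes in either direction in that fit, and the median was -0.95.

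When HFD + PBS was set against normal diet, 3 of the 8 markers were negative, against 50.3% of all genes, and the median was 0.05 against -0.0028. Cd37 had an unadjusted edgeR p under 0.05 with higher values, against 9.41% of all genes (11.4% were lower), and Cd37 was also the 1 marker without overlap on the higher side, against 13% of all genes. Pax5 was the 1 marker without overlap on the lower side, against 15.3% of all genes. In the concordant libraries, 3 of the 8 were again negative, Pax5 had the 1 unadjusted p under 0.05, against 15.1% of all genes in either direction in that fit, and the median was 0.11. As the filter could keep a gene through the group in which it was abundant, these counts describe the 8 tested markers and not all 9. Pax5 was kept through the normal diet libraries, as with only the HFD + IgG1 and HFD + PBS libraries it did not pass and 7 markers were tested. Its counts among the markers lower than normal diet, in both high-fat groups, are therefore description only.

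**Figure D2:**
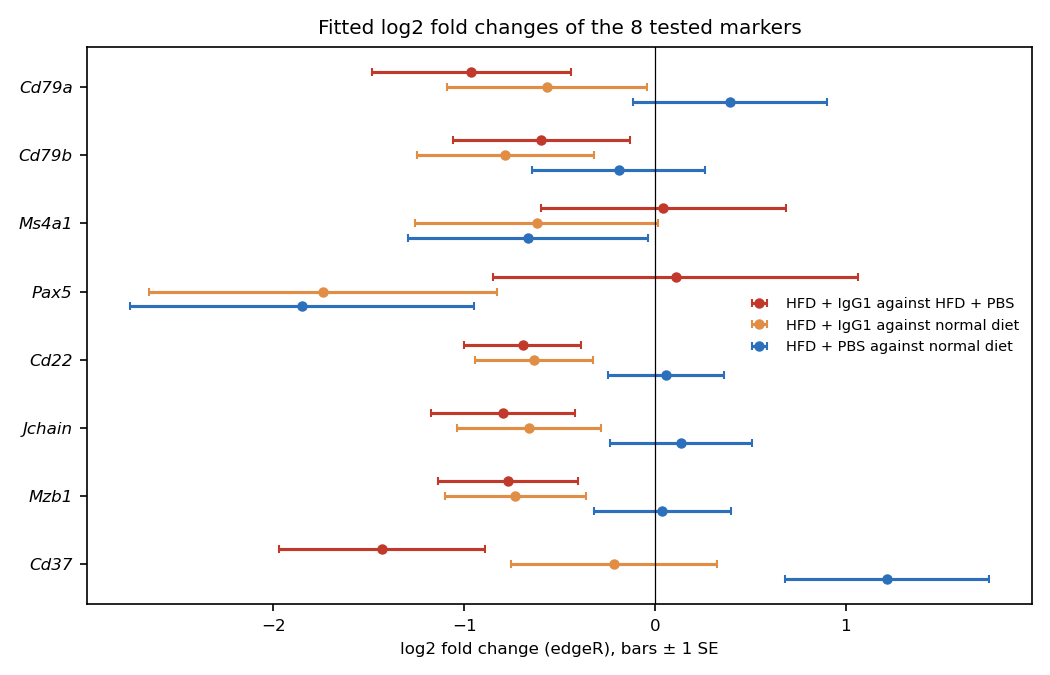
Fitted log2 fold change (horizontal axis, edgeR, bars ± 1 SE) of the 8 tested markers in the 3 comparisons. HFD + IgG1 lies below 0 against normal diet for all 8, Pax5 lies at -1.74 and -1.85 against normal diet, and Cd37 at -1.43 against HFD + PBS.

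By library, HFD + IgG1 replicate 7 was the lowest for 4 of the 9 markers and replicate 6 for 3. HFD + PBS replicate 3 was the highest for 3, and HFD + PBS replicate 6 and normal diet replicate 4 for 2 each. The 9 markers summed to 54.9, 63.8 and 28.1 CPM in HFD + IgG1, 109, 89.2 and 68.6 in HFD + PBS and 89.5, 79.2 and 58.8 in normal diet livers. HFD + IgG1 replicate 6 lay above the lowest normal diet library, and the sum overlapped normal diet but not HFD + PBS.

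Ratios between markers were taken within each library. Pax5 counts per Cd79a count were 0.457, 0.357 and 0.231 in HFD + IgG1, 0.075, 0.0476 and 0.329 in HFD + PBS and 0.707, 1.15 and 0.846 in normal diet livers. All 6 high-fat libraries lay below the normal diet ones, and HFD + PBS replicates 3 and 4 were the lowest. Cd37 counts per Cd22 count were 1.12, 2.40 and 0.880 in HFD + IgG1, 2.94, 2.06 and 2.91 in HFD + PBS and 1.44, 1.09 and 1.16 in normal diet livers, so that HFD + PBS lay above normal diet in every library and HFD + IgG1 replicate 6 was within the HFD + PBS range. Jchain counts per Mzb1 count ran from 11.9 to 24.3 over the 9 libraries with no separation of groups. These ratios rest on as few as 2 counts of Pax5.

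**Figure D3:**
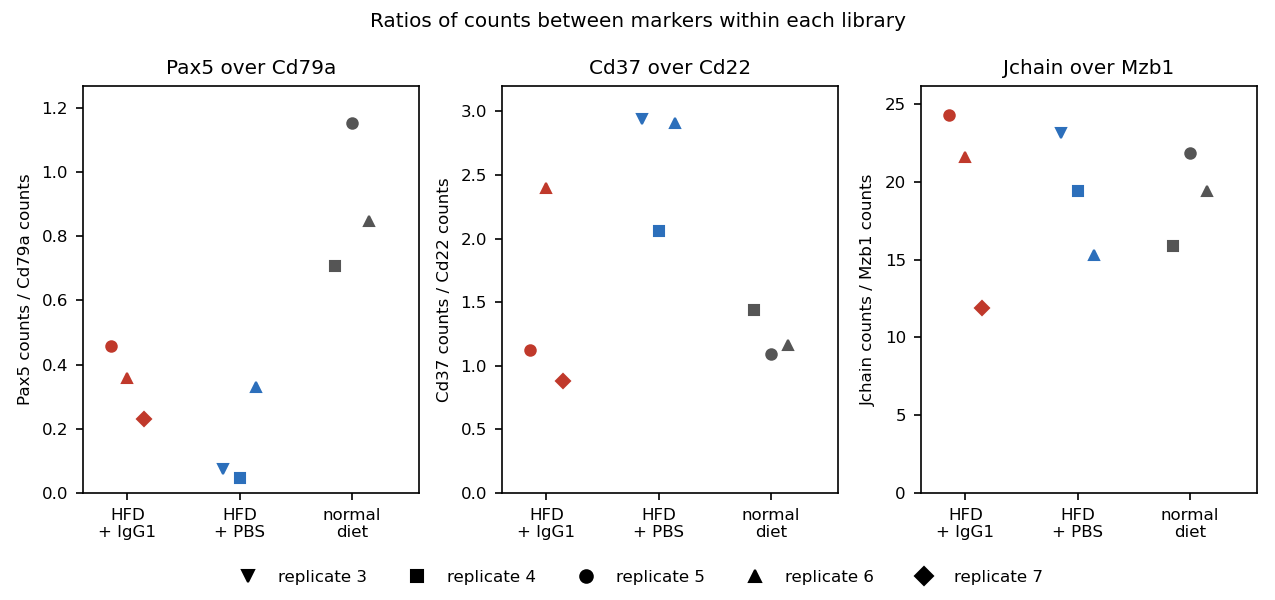
Count of one marker divided by that of another in the same library (vertical axes, linear), by group and with the marker shape giving the replicate. Pax5 over Cd79a lies at 0.707 to 1.15 in normal diet and 0.457 or lower in the other 6 libraries, Cd37 over Cd22 lies highest in HFD + PBS replicates 3 and 6, and Jchain over Mzb1 overlaps between groups.

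Shares over all genes at an unadjusted edgeR p under 0.05 are the background for this list and those below. They were 11.6% lower and 12.6% higher for HFD + IgG1 against HFD + PBS. For HFD + IgG1 against normal diet they were 3.21% and 3.83%, and for HFD + PBS against normal diet 11.4% and 9.41%. Of 26 listed genes of B cell receptor signalling, the pathway of Cd79a, Cd79b and Cd22, 25 were tested. With HFD + IgG1 set against HFD + PBS, 14 of the 25 had lower and 2 higher values at that level. None passed adjustment, and the median was -0.81. In the concordant libraries the median was -0.71, with 2 lower and none higher. In that fit 8.4% of all genes passed that level in either direction. Vav1, an exchange factor downstream of the receptor, had 7.71, 21.3 and 8.76 CPM in HFD + IgG1 and 50.3, 29.9 and 39.6 in HFD + PBS livers, or -1.66 on the log2 scale (SE 0.39, edgeR adjusted p = 0.140). Ptpn6, a phosphatase recruited by Cd22, had -0.94, Lyn, the kinase that phosphorylates Cd79a, -0.75, and Btk, the Bruton kinase, -1.35. These genes are also expressed by myeloid cells. In HFD + PBS against normal diet, 6 of the 25 were higher and 0 lower at that level, with a median of 0.36, or 0.62 in the concordant libraries. Vav1 had 1.10, Btk 1.14, Lyn 0.60 and the adaptor Dapp1 1.36. Counts for HFD + IgG1 against normal diet were 1 higher and 0 lower, with a median of -0.42, or -0.08 in the concordant libraries.

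Of 25 other B cell surface and lineage genes, 20 were tested. Of these, 8 had lower and 1 higher values in HFD + IgG1 than in HFD + PBS at an unadjusted edgeR p under 0.05, with a median of -0.95. Those with the smallest p were Fcrl5 at -2.41, Cxcr4 at -2.25, Cd38 at -0.97 and Ralgps2, which was higher at 0.46. Cxcr4, the receptor for Cxcl12, is abundant in neutrophils too. Set against normal diet, 4 were higher in HFD + PBS and 1 lower, with a median of 0.37, or 0.15 in the concordant libraries, and the same list gave Ralgps2 -0.73, Cxcr4 2.78, Fcrl5 1.91 and Cd24a 2.33. HFD + IgG1 against normal diet gave 0 higher and 1 lower, with a median of -0.43, or -0.12 in the concordant libraries. Among 17 of 18 lineage transcription factors the counts for HFD + IgG1 against HFD + PBS were 6 lower and 0 higher, with a median of -0.85, and Pou2af1, the octamer coactivator, had 0.999, 1.02 and 0.423 CPM in HFD + IgG1 and 2.25, 3.72 and 3.20 in HFD + PBS livers. Spi1, which encodes PU.1, had -1.67 and Irf8 -1.30. Against normal diet, HFD + PBS had 2 higher and 1 lower, with a median of 0.09, or 0.42 in the concordant libraries. Bach2, a repressor of plasma cell fate, had the smallest p there with -0.98, or -0.52 in the concordant libraries, and Xbp1 had 0.69. HFD + IgG1 against normal diet gave 2 lower and 0 higher, with a median of -0.56, or -0.19 in the concordant libraries.

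Of 12 immunoglobulin constant genes 10 were tested, and for HFD + IgG1 against HFD + PBS 6 were lower and 0 higher at an unadjusted edgeR p under 0.05, with a median of -1.40. Igkc, the kappa light chain, had 107, 179 and 52.4 CPM in HFD + IgG1, 307, 502 and 171 in HFD + PBS and 208, 179 and 102 in normal diet livers. HFD + PBS replicate 6 lay just below HFD + IgG1 replicate 6, and the log2 fold change was -1.53 (SE 0.51, edgeR adjusted p = 0.146) against HFD + PBS. Igha, the alpha heavy chain, had 57.3, 72.2 and 44.5 CPM in HFD + IgG1, 124, 166 and 74.8 in HFD + PBS and 113, 110 and 135 in normal diet livers, without overlap between HFD + IgG1 and either other group. Its log2 fold change was -1.07 (SE 0.28, edgeR adjusted p = 0.140) against HFD + PBS and -1.04 against normal diet.

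Ighm, the mu heavy chain, had 10.1, 30.2 and 11.4 CPM in HFD + IgG1, 58.1, 65.1 and 165 in HFD + PBS and 31.1, 91.0 and 10.3 in normal diet livers, with -2.47 (SE 0.86, edgeR adjusted p = 0.156) against HFD + PBS, or -1.59 in the concordant libraries. Iglc1, a lambda light chain, had -1.14. In HFD + PBS, 2 of the 10 were higher and 1 lower than in normal diet livers, with a median log2 fold change of 1.1, where Ighg2c had 1.85, Ighg2b 1.62 and Iglc1 0.93. Ighd, the delta heavy chain of mature naive B cells, had 0.0442, 0.172 and 0.877 CPM in HFD + PBS and 3.18, 2.34 and 3.54 in normal diet livers, with -3.04 (SE 0.89, edgeR adjusted p = 0.126), or -4.91 in the concordant libraries. In HFD + IgG1 against normal diet, 0 were higher and 1 was lower, with a median of -0.37. Ighg2b, Ighg2c and the lambda genes are closely similar genes, and the split of reads between them is uncertain.

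The BAFF and APRIL axis, the survival ligands of B cells and plasma cells with their receptors, had 8 of 10 listed genes tested. Tnfsf13b, which encodes BAFF, had 0.714, 0.748 and 0.966 CPM in HFD + IgG1, 3.13, 1.83 and 2.22 in HFD + PBS and 0.550, 1.06 and 0.840 in normal diet livers. HFD + PBS lay above both other groups in every library. The log2 fold change was -1.56 (SE 0.41, edgeR adjusted p = 0.140) for HFD + IgG1 against HFD + PBS and 1.55 (SE 0.41, edgeR adjusted p = 0.110) for HFD + PBS against normal diet, and in the concordant libraries -1.58 and 1.86. Tnfrsf13b, the receptor TACI, had -1.87 and 1.19. At an unadjusted p under 0.05 the list had 3 lower and 0 higher for HFD + IgG1 against HFD + PBS (median -0.57), 4 higher and 0 lower for HFD + PBS against normal diet (median 0.74) and none for HFD + IgG1 against normal diet (median 0.08, or 0.30 in the concordant libraries).

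Of 13 homing and survival genes 6 were tested. Vcam1, an adhesion molecule, had 24.8, 76.3 and 26.0 CPM in HFD + IgG1, 157, 193 and 110 in HFD + PBS and 54.9, 91.6 and 34.5 in normal diet livers, with -1.85 (edgeR adjusted p = 0.140) against HFD + PBS. Icosl had -1.39, Cxcl12 0.41 and Cxcl13, the chemokine that draws B cells into follicles, -2.67. Cxcl13 had 202 CPM in HFD + PBS replicate 4 against 21.6 and 44.9 in the other two. The list had 2 lower and 1 higher for HFD + IgG1 against HFD + PBS (median -0.79), 3 higher and 0 lower for HFD + PBS against normal diet (median 0.89) and none for HFD + IgG1 against normal diet (median 0.01, or 0.24 in the concordant libraries).

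Of 21 genes of plasma cells and antibody secretion outside the markers 18 were tested, with 3 lower and 2 higher for HFD + IgG1 against HFD + PBS at an unadjusted edgeR p under 0.05 and a median of 0.15. The lower genes included Pou2af1 at -1.90, Cd28, which T cells also carry, at -2.15 and Irf4 at -0.90, and Txndc5, a folding enzyme that hepatocytes also make, was higher at 0.50. For HFD + PBS against normal diet, 2 were higher and 0 lower (median 0.13), and for HFD + IgG1 against normal diet 1 was higher and 1 lower (median 0.08). Many secretion genes are hepatocyte genes as well. The 6 tested germinal centre genes had medians of -0.59 for HFD + IgG1 against HFD + PBS, or -0.35 in the concordant libraries, and 0.25 for HFD + PBS against normal diet. The 3 tested genes of early B cell development had -0.41 and 0.64 in these comparisons, or -0.79 and 1.46 in the concordant libraries.

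Markers of other immune cells were read in the same fits. For HFD + IgG1 against HFD + PBS, all 8 pan-leukocyte genes were lower at an unadjusted edgeR p under 0.05 (11.6% of all genes), with a median of -1.34. In the concordant libraries 2 of the 8 were lower at that level (8.4% of all genes in either direction), with a median of -1.17. They summed to 258 to 586 CPM in HFD + IgG1, 549 to 1283 in HFD + PBS and 383 to 510 in normal diet livers. The 8 Kupffer cell markers had a median of -1.02, or -0.61 in the concordant libraries, and summed to 725 to 2595, 2533 to 3111 and 1824 to 2397 CPM in the same groups. The 8 T cell markers had a median of -1.10 and summed to 5.62 to 10.6, 9.72 to 36.9 and 7.69 to 24.0 CPM. The 8 neutrophil markers had a median of -3.21 and summed to 13.2 to 630, 431 to 4191 and 35.6 to 190 CPM, with HFD + IgG1 replicate 6 and HFD + PBS replicate 3 the highest of their groups. The 6 tested genes of the B cell marker list, 5 of them markers described above, had a median of -0.27, or -0.56 in the concordant libraries. Against normal diet the median of this list was -0.43 in HFD + PBS and -0.63 in HFD + IgG1. In the concordant libraries these were -0.84 and -1.37. Medians of the remaining marker lists for HFD + IgG1 against HFD + PBS were 0.55 for 9 hepatocyte genes (0.27 in the concordant libraries) and -1.28 for 6 NK cell genes. They were -0.39 for 6 conventional and 0.31 for 3 tested plasmacytoid dendritic cell genes, and -0.23 for 4 tested plasma cell genes. Medians were -0.94 for 4 cholangiocyte, -0.44 for 4 sinusoidal endothelial and -0.43 for 5 tested erythroid genes, where the sign turned to 0.42 in the concordant libraries. The 1 tested pancreatic acinar gene, Cela1, had 0.99, or 0.05 in the concordant libraries. The part of these other cells in the B cell and plasma cell values was not tested.

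**Figure D4:**
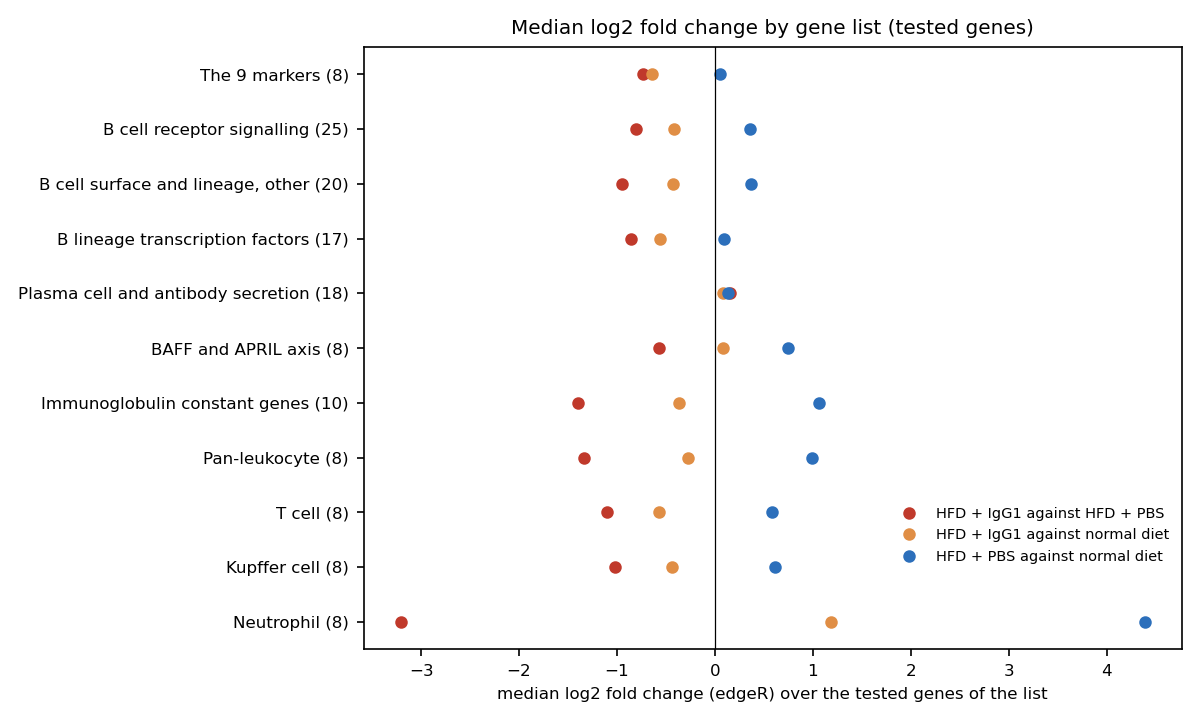
Median fitted log2 fold change (horizontal axis, edgeR) over the tested genes of each list, whose number is in brackets, in the 3 comparisons. The 8 tested markers lie at -0.73 for HFD + IgG1 against HFD + PBS and near 0 for HFD + PBS against normal diet, while neutrophil markers lie at -3.21 and 4.39.

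The genes most like the 8 tested markers in their pattern over the 9 libraries were found by Pearson correlation with the mean standardised log2 CPM of the markers, among 13216 genes averaging at least 1 CPM. This profile was lowest in HFD + IgG1 replicate 7 (-1.46) and highest in normal diet replicate 4 (0.69). Btla, a lymphocyte receptor, had r = 0.93, and Gimap8, a lymphocyte GTPase, r = 0.90. The other 8 were Lamb2 (0.93), Speg (0.92), Esrrb (0.92), Plekhg1 (0.92), Alms1 (0.91), Smarcd3 (0.90), Kdm7a (0.90) and Gm21781 (0.89). The points share library depth and composition, and these values describe 9 libraries only.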

How the data were processed

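Liver RNA was extracted with Trizol and made into NEBNext Ultra libraries, per the labels' protocols. The authors deposited raw counts, as whole numbers, for each Ensembl gene ID. The submitters' processing notes list mm10 and Bowtie 0.12.2 with no role for either. Which program counted the reads, on which annotation and whether by strand is not stated, so reads shared by overlapping genes carry an unknown split.

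Names, coordinates and exon lengths came from GENCODE M21 (54495 of 54532 IDs matched). Differences between groups were tested in edgeR 4.0.16 (R 4.3.3) by its two-sided quasi-likelihood test with robust = TRUE, after filterByExpr by group (minimum count 10) and TMM scaling, with 1 mean per group and all 9 libraries in the fit. Benjamini-Hochberg adjustment ran over the 14763 genes that passed, with a threshold of 0.05. CPM is counts per library total times TMM factor, and RPKM divides it by exon length. The spread between libraries was a biological coefficient of variation of 0.318 (dispersion 0.101). It limits the precision, as does depth for counts as low as 2. The fit was also run on counts simulated from the levels of these same libraries, and no result of that run is used here.

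Members and lists were chosen with earlier results of these data known. Named are all 9 markers, Apoe, Ighm and Igkc, up to 4 genes per list with the smallest unadjusted p in a comparison, and 10 genes of like pattern. Genes of 9 lists and 16 marker lists were used. Alternatives were DESeq2 1.42.0, limma-voom (limma 3.58.1), RLE and upper-quartile factors, no filter, a 1 CPM filter in 3 libraries, robust = FALSE, only the 6 libraries compared, the replicate number as a block, only the 6 concordant libraries, and each library left out. For lists outside the markers, the fit to the concordant libraries was added after the data were seen. Mzb1 was kept, and no sequence of it is shown.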

Additional observations from a re-analysis of the deposited data

How the results depend on the processing

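Of 455 marker values under other settings, 29 turned sign, 2 passed the threshold and 424 did neither. Genes called for HFD + PBS against normal diet numbered 1138 with DESeq2, 274 with no filter, 184 with only the 6 libraries compared, 2 in the 6 concordant libraries, and 0 to 576 with 1 library left out. For HFD + IgG1 against HFD + PBS they were 1270 with DESeq2, 57 with no filter and 0 to 2356 with 1 library left out. For HFD + IgG1 against normal diet they were 101 with DESeq2, 6 with no filter, 3 with only the 6 libraries and 0 to 6. Among the fits with 1 library left out, the most calls came without HFD + IgG1 replicate 6 in each comparison. DESeq2 called 1 marker for HFD + IgG1 against HFD + PBS, where it called 8.67% of all genes. Leaving out 1 library gave 0 to 1, with the 1 found without HFD + IgG1 replicate 6, where 15.5% of all genes were called. Both are Cd37, and they are the 2 marker values that passed the threshold. The marker median for HFD + IgG1 against normal diet was -1.19 to -0.49 with 1 library left out.

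Log2 fold changes near 0 turned, and Jchain for HFD + IgG1 against HFD + PBS turned from -0.80 to 0.10 with the replicate number as a block. Numbers 3 and 7 each occur in 1 group only, so HFD + PBS replicate 3 and HFD + IgG1 replicate 7 do not inform the comparisons with that block. These libraries had the highest and the lowest Jchain, at 69.4 and 17.9 CPM. For HFD + IgG1 against HFD + PBS, Ms4a1 was -0.31 with voom, -0.040 with upper-quartile factors, -0.0034 with no filter, -0.0085 with 6 libraries and -0.64 in the concordant libraries. With 1 library left out it was -1.14 to 0.56, and Pax5 was -1.09 to 2.0. For HFD + IgG1 against normal diet, Cd37 was 0.14 in the concordant libraries and -1.15 to 0.15 with 1 left out. For HFD + PBS against normal diet, leaving out 1 gave Cd79b -0.74 to 0.10, Cd22 -0.13 to 0.27, Jchain -0.027 to 0.43 and Mzb1 -0.15 to 0.41. The cause was not tested.

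The replicate numbers showed no pairing of the libraries. Correlations of deviations between libraries of the same number were -0.494 to 0.0069, and 0 of 9 libraries matched their own number best. HFD + PBS replicate 3 and HFD + IgG1 replicate 7 could not match, as no other group has their number. With the number as a block, 0 genes were called in all comparisons (370, 396 and 981 at an unadjusted p under 0.05). The block gave, for HFD + IgG1 against HFD + PBS, Ms4a1 -0.62, Pax5 -0.63 and Jchain 0.10. For HFD + PBS against normal diet it gave Cd79b 0.052, Cd22 -0.10, Jchain -0.20 and Mzb1 -0.16. No detection limit was computed for these markers.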

Other observations

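Further genes of mature B cells are given as values. Apart from Ighd they were chosen after their values were seen, and apart from Ighd and Fcer2a they have no test here. Fcer2a was tested in the concordant libraries, where its lowest edgeR adjusted p was 0.211, for HFD + PBS against normal diet. Ighd had 2.21, 0.374 and 0.845 CPM in HFD + IgG1, 0.0442, 0.172 and 0.877 in HFD + PBS and 3.18, 2.34 and 3.54 in normal diet livers. HFD + IgG1 replicate 5 and HFD + PBS replicate 6, neither of them concordant, were the highest of their groups. Fcer2a, the low-affinity IgE receptor CD23, had 6, 1 and 5 counts in HFD + IgG1, 0, 0 and 2 in HFD + PBS and 10, 8 and 21 in normal diet livers. Ccr6, a chemokine receptor, had 2, 0 and 0 counts in HFD + IgG1, 1, 1 and 1 in HFD + PBS and 5, 11 and 3 in normal diet livers. Other genes went the other way: of the 20 tested B cell surface and lineage genes, 12 had a positive log2 fold change for HFD + PBS against normal diet, with a median of 0.37, and Fcrl5 had 1.91.

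Ighd counts per Ighm count were 0.218, 0.0124 and 0.0741 in HFD + IgG1, 0.00076, 0.00263 and 0.00531 in HFD + PBS and 0.102, 0.0257 and 0.343 in normal diet livers, so all 3 HFD + PBS libraries were the lowest. Tnfrsf17, the plasma cell receptor BCMA, had 2, 0 and 0 counts in HFD + IgG1, 13, 3 and 10 in HFD + PBS and 4, 1 and 4 in normal diet livers.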
